A study of Mus musculus with 20 samples.

Results

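Expression of 6 genes that mark brown and beige fat, Cidea, Ppargc1a, Cox7a1, Cox8b, Nat8l and Ucp1, was followed in the visceral fat of pregnant and non pregnant mice on a high fat (HF) or a control diet. Every probe set of the array annotated to exactly 1 of these symbols was taken, which gave 6 of 18194 genes and 11 of 45101 probe sets, and each gene was then read from its brightest probe set over the 20 arrays. Of the 6 genes, 5 had a probe set that exceeded an intensity of 100, the expression threshold of the study, in at least 5 of 20 arrays and were tested. Ucp1 did not exceed 100 on any array and is described without a test.

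Brown fat burns lipid to make heat, and beige adipocytes are cells within white depots that can take on the same programme. In both, dense mitochondria oxidise fatty acids, and the uncoupling protein UCP1 lets the proton gradient of the inner membrane run down as heat. Visceral depots of mice are mostly white fat, with few beige adipocytes in the absence of cold or adrenergic stimulation. Several of the genes that mark brown fat, Cidea among them, are also used by white adipocytes, so their RNA does not by itself mark a thermogenic cell.

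The series holds RNA from visceral fat of 20 female C57BL/6J mice, with 1 Affymetrix array a mouse and 5 mice in each group. The groups were HF pregnant mice (58% fat diet), HF non pregnant mice (58% fat diet), control pregnant mice (10% fat diet) and control non pregnant mice (10% fat diet). The labels name no engineered allele, feeding began before mating, and pregnant mice were killed in late gestation at E18.5. Non pregnant mice carry the same E18.5 in their age label, and the depot is mesenteric in a legend of the study where the labels say only visceral fat. Mice are numbered by the replicate number of their label. P values of group differences weigh them against the spread between mice within the groups.

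Several libraries stood apart from the rest. Pancreatic acinar markers (9 of 12 listed had a probe set) summed to 55335 in control pregnant mouse 2 and 48277 in control non pregnant mouse 4, and to between 382 and 3689 in the other 18 mice. All 9 exceeded 100 in these 2 mice and in control pregnant mouse 5, which had the sum of 3689, against 1 to 3 of them in each of the other 17 mice. B cell markers (7 of 8 listed) ranged within every group, with medians of 4915 in HF pregnant and 3856 in HF non pregnant mice, against 1933 in control pregnant mice and 1764 in control non pregnant mice. HF non pregnant mouse 4 had the highest Cidea, Ppargc1a, Cox8b and Nat8l of its group. HF non pregnant mouse 5 had the highest B cell sum of all 20 mice, 14001, and the lowest sum of white adipocyte markers, 67120. As the samples are whole tissue, fewer cells of a type and less RNA per cell cannot be told apart.

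The tissue carried white adipocyte RNA throughout. All 9 of the 11 listed white adipocyte markers that had a probe set exceeded 100 in every mouse, and their summed intensity had medians of 85392 in HF pregnant and 97725 in HF non pregnant mice, against 108556 in control pregnant mice and 109972 in control non pregnant mice. Of 9 markers of the brown fat lineage, 4 (Ucp1, the transcription factors Zic1 and Prdm16, and Dio2, which activates thyroid hormone) stayed under 100 on all 20 arrays. Elovl3, a fatty acid elongase of brown fat, exceeded 100 on 1 array, the proton channel Otop1 on 5 and the transcription factor Lhx8 on 8. Ebf2, a regulator of brown adipocyte identity, exceeded 100 on 18 arrays and the potassium channel Kcnk3 on 20. Ucp1, Zic1, Prdm16 and Dio2 were thus under the expression threshold throughout, though no background level was estimated. The words brown and beige fat name here where the genes are best known, not the cells that were sampled.

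Promoter sequence was found in RefSeq (GRCm38.p6) for 4 of the 6 genes, and it is shown for the 3 of them that were tested, so that their start regions can be compared. Each run spans 250 bases before and 50 after the annotated start, 5′ to 3′ on the strand of the gene, with capitals on the motif matches described after it. The promoter of Cox7a1 lies at chr7:30183921-30184220 on the plus strand, that of Cox8b at chr7:140900397-140900696 on the minus strand and that of Ppargc1a at chr5:51567676-51567975 on the minus strand.
Cox7a1: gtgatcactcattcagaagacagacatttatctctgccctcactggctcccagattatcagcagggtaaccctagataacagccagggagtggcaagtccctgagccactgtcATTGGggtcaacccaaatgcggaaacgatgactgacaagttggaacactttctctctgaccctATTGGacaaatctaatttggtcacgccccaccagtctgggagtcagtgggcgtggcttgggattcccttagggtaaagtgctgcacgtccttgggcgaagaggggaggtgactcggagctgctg
Cox8b: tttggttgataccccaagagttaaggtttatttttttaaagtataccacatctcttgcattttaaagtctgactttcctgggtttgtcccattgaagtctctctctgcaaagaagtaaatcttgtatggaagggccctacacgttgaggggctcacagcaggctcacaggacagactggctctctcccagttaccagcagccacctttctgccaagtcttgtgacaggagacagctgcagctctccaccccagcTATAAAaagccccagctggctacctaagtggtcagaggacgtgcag
Ppargc1a: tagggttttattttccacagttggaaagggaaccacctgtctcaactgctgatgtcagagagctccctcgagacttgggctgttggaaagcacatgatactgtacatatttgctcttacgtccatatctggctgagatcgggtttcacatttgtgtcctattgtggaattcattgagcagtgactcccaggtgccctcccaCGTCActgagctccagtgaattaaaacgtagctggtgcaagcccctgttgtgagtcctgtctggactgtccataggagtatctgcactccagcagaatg
Both strands of each promoter were searched for 4 short motifs. The CCAAT box (letters CCAAT) occurred 2 times in Cox7a1, on the reverse strand, with first bases at -137 and -74 from the start. A TATA box (TATAAA) occurred in Cox8b on the forward strand, from base 5 of the annotated transcript. A part of a cAMP response element (TGACG) occurred in Ppargc1a on the reverse strand at -49. The letters AGGTCA, only a part of a nuclear receptor element, occurred in none of the 3. Among 32851 mouse promoters of the same length, 37.4% held CCAAT, 13.6% TATAAA, 20.8% TGACG and 16.3% AGGTCA. The 3 promoters thus had no searched motif in common, and a match describes letters, not a used site.

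Cidea was the member that differed most between the diets. It encodes a protein of the lipid droplet surface that promotes droplet growth, and it is one of the most widely used markers of brown fat. Its intensity was 87.7, 58.8, 122, 73.8 and 127 in HF pregnant mice and 80.8, 148, 115, 697 and 72.0 in HF non pregnant mice. It was 731, 419, 568, 192 and 330.5 in control pregnant mice and 385, 177, 632, 984 and 1150 in control non pregnant mice. All HF pregnant mice lay below all control pregnant mice, the highest at 127 against a lowest of 192, whereas HF non pregnant mouse 4, at 697, lay inside the range of the control non pregnant mice. Averaged over pregnancy status, Cidea was 4.09-fold lower on the HF diet, a log2 difference of -2.03 (SE 0.41, limma adjusted p = 0.0249).

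Nat8l followed Cidea closely. It encodes the enzyme that makes N-acetylaspartate, known from neurons and, in brown adipocytes, as a source of acetyl groups for lipid synthesis. Its intensity was 186, 233, 190, 158 and 212 in HF pregnant mice and 172, 208, 172, 646 and 121 in HF non pregnant mice. It was 701, 482, 633, 254 and 338 in control pregnant mice and 603, 308, 538, 693 and 892 in control non pregnant mice. HF pregnant and control pregnant mice again did not overlap, with 233 the highest of the HF pregnant mice and 254 the lowest of the control pregnant mice. HF non pregnant mouse 4 was again the only mouse of its group within the control range. Nat8l was 2.48-fold lower on the HF diet averaged over pregnancy status, a log2 difference of -1.31 (SE 0.27, limma adjusted p = 0.0259). Its other probe set, fitted without the filter, gave -1.34 and did not pass (limma adjusted p = 0.0584). In that same fit the brighter probe set had a limma adjusted p of 0.0452.

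Cox8b encodes a subunit of cytochrome c oxidase, the last complex of the respiratory chain, in the form used by heart, skeletal muscle and brown fat. Its probe set was above 300 in every mouse. Its intensity was 613, 669, 1678, 405 and 669 in HF pregnant mice and 967, 873, 786, 2041 and 335 in HF non pregnant mice. It was 2183, 1382, 1774, 735 and 1180 in control pregnant mice and 1264, 975, 1586, 1795 and 2032 in control non pregnant mice. HF pregnant mouse 3 was inside the range of the control pregnant mice and HF non pregnant mouse 4 above all control non pregnant mice, while the other 8 HF mice lay below every control mouse of the same pregnancy status. The log2 difference averaged over pregnancy status was -0.86 (SE 0.29, limma adjusted p = 0.0989), which did not pass.

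Cox7a1 encodes another such subunit, the heart and muscle form of subunit 7a, which brown adipocytes also use. Its intensity was 95.1, 53.5, 70.3, 77.0 and 65.0 in HF pregnant mice and 84.2, 154, 116, 134 and 49.1 in HF non pregnant mice. It was 187, 86.2, 157, 83.4 and 123 in control pregnant mice and 124, 154, 145, 166 and 199 in control non pregnant mice. All 5 HF pregnant mice were under 100 and all 5 control non pregnant mice above it, and both other groups straddled it. The log2 difference averaged over pregnancy status was -0.71 (SE 0.20, limma adjusted p = 0.0663). With intensities under 100 set to 100, a bound on what the dim values can say, it was -0.38 (adjusted p = 0.0844).

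Ppargc1a encodes PGC-1α, the coactivator that raises mitochondrial and thermogenic transcription on cold or adrenergic stimulation. Its intensity was 160, 90.9, 106, 109 and 179 in HF pregnant mice and 78.0, 124, 171, 262 and 82.6 in HF non pregnant mice. It was 133, 78.1, 168, 118 and 144 in control pregnant mice and 287, 204, 143, 265 and 138 in control non pregnant mice. The first 3 of these groups had geometric means between 124 and 129, and that of the control non pregnant mice was 198. The log2 difference for the HF diet averaged over pregnancy status was -0.31 (95% CI -0.78 to 0.16, limma adjusted p = 0.332), an interval that spans 0 and reaches past a 1.5-fold fall. The gene has 5 probe sets, of which 2 were kept by the filter, and the 4 others gave values between -0.29 and -0.11 when fitted without it.

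Ucp1, the uncoupling protein that defines brown fat, was dim in every mouse. Its intensity was 25.0, 26.8, 63.6, 25.2 and 24.7 in HF pregnant mice and 24.8, 28.7, 22.7, 22.6 and 24.3 in HF non pregnant mice. It was 33.7, 21.1, 21.3, 21.8 and 22.9 in control pregnant mice and 22.1, 21.4, 23.9, 25.7 and 66.9 in control non pregnant mice. HF pregnant mouse 3 and control non pregnant mouse 5 were the only mice above 60, and both also had the highest Cox8b of their groups. In Cidea, Nat8l and Cox7a1, control non pregnant mouse 5 was the highest of its group and HF pregnant mouse 3 was not. Neither mouse was the highest of its group in Ppargc1a. All 20 values were under 100, so no order of the groups was read from them.

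**Figure D1:**
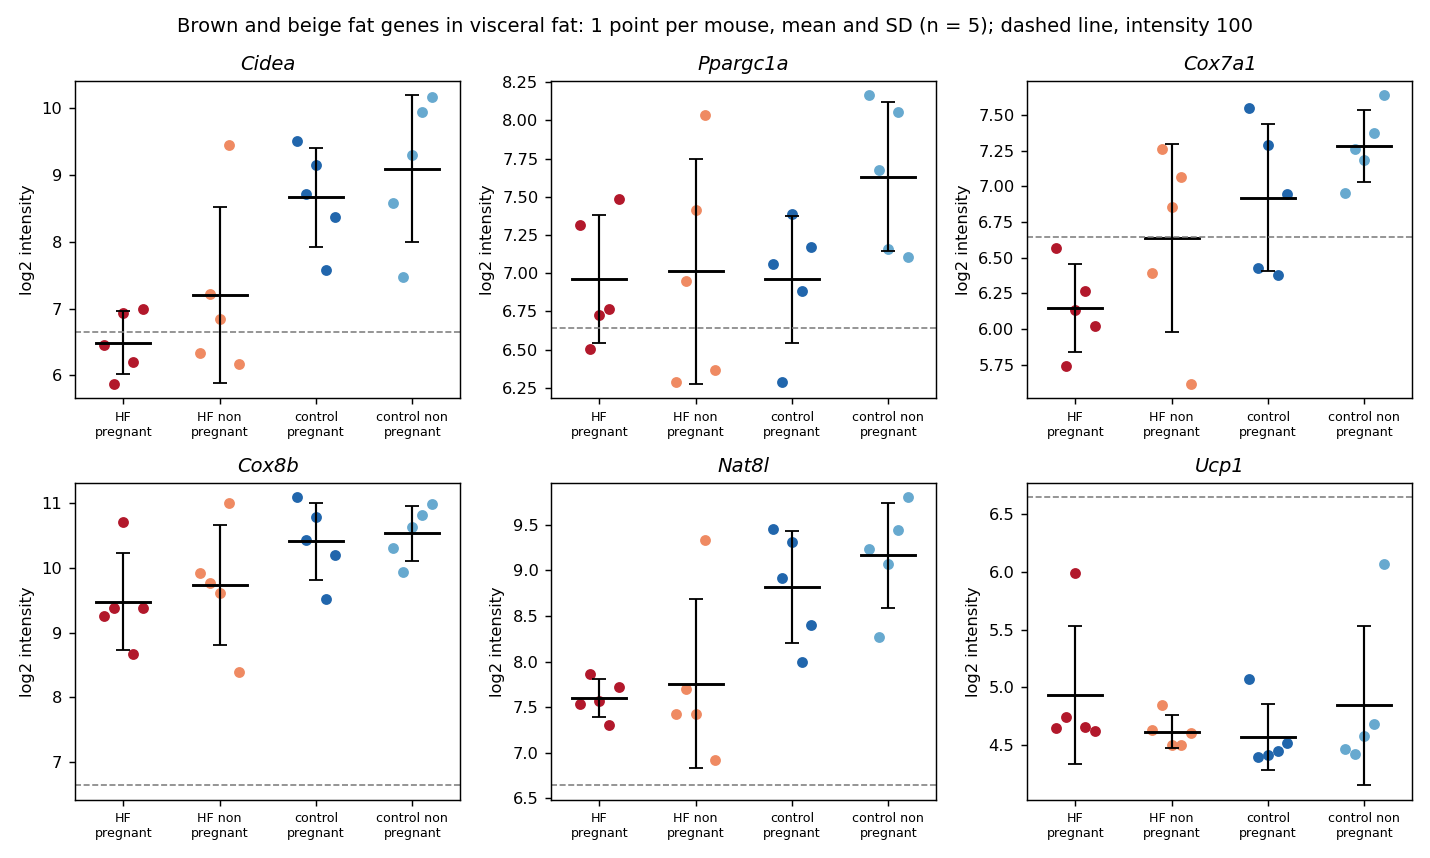
Log2 intensity of each gene (y axis, a separate scale in each panel) in 5 mice of each group (x axis), with the mean and SD in black and a dashed line at an intensity of 100. Cidea and Nat8l separate the HF pregnant from the control pregnant mice, HF non pregnant mouse 4 is the highest of its group in Cidea, Ppargc1a, Cox8b and Nat8l, and Ucp1 lies under the line in all mice.

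The first comparison was of diet in pregnant mice. Of the 5 members tested, 0 passed after adjustment over 19802 probe sets, where 35 probe sets (0.177%) were called lower and 3 higher. The log2 differences, HF pregnant minus control pregnant, were -2.17 for Cidea (SE 0.57, limma adjusted p = 0.141), -1.21 for Nat8l (adjusted p = 0.209), -0.93 for Cox8b (adjusted p = 0.363) and -0.77 for Cox7a1 (adjusted p = 0.264). Ppargc1a did not share this direction, at 0.00 (95% CI -0.66 to 0.67, limma adjusted p = 0.998). At an unadjusted p under 0.05, 4 of the 5 members passed, as did 2542 of all probe sets. Cidea and Nat8l, 2 of 5, had no overlap between the groups, which held for 387 of all tested probe sets (1.95%). With intensities under 100 set to 100, which raised 3 of the 5 HF pregnant values, the Cidea difference was -1.89.

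The second comparison was of diet in non pregnant mice. All 5 members were lower in the HF mice by their estimates, and 0 passed, against 0% of all tested probe sets, in a comparison where 3500 had an unadjusted p under 0.05. Nat8l had the lowest unadjusted p of the members, with a log2 difference of -1.40 (SE 0.38, limma adjusted p = 0.281) and rank 32 among the 19802. Cidea gave -1.89 and Cox7a1 -0.64, each with a limma adjusted p of 0.281. Cox8b gave -0.79 and Ppargc1a -0.62, each with a limma adjusted p of 0.282. Without HF non pregnant mouse 4 these estimates were further from 0, at -2.45 for Cidea, -1.80 for Nat8l, -1.11 for Cox8b, -0.88 for Ppargc1a and -0.75 for Cox7a1, still without a call. Without HF non pregnant mouse 5 they were closer to 0, at -1.63 for Cidea, -1.19 for Nat8l, -0.46 for Cox8b, -0.46 for Ppargc1a and -0.39 for Cox7a1.

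Averaging the diet difference over both pregnancy states used all 20 mice. Cidea and Nat8l, 2 of the 5 members tested, were called lower on the HF diet and 0 higher, against 219 called lower (1.11%) and 27 called higher of all tested probe sets. The median of the 5 members was -0.86 on the log2 scale and that of all tested probe sets 0.04. As the members were chosen with earlier results of these data known, these contrasts with all probe sets are a description, not a test. Both calls sat close to the threshold. Cidea kept its call in 9 of 20 fits that left out 1 mouse, with adjusted p between 0.00274 and 0.0633, and Nat8l in 8 of 20, with adjusted p between 0.0017 and 0.0654 (limma). The log2 difference itself stayed between -2.31 and -1.90 for Cidea and between -1.51 and -1.20 for Nat8l in those fits. Both calls were lost without any 1 of HF pregnant mice 2, 3 and 4, HF non pregnant mice 1, 3 and 5, control pregnant mice 1 and 3, and control non pregnant mice 3, 4 and 5, and that of Nat8l also without HF pregnant mouse 1. Without HF non pregnant mouse 4, Cox7a1 and Cox8b were called as well, at -0.76 (limma adjusted p = 0.0376) and -1.02 (adjusted p = 0.0384). Cox7a1 was also called without HF non pregnant mouse 2, control pregnant mouse 2 or control pregnant mouse 4, at -0.79, -0.77 and -0.78.

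The values of other cell types were set beside these calls. Of the 9 white adipocyte markers tested, all 9 had a negative diet difference, with a median of -0.24, and only Slc2a4, the insulin-responsive glucose transporter, passed, at -1.08 (SE 0.23, limma adjusted p = 0.0294). The 6 B cell markers tested had positive differences with a median of 1.18, the 7 T cell markers with a median of 0.85, and 8 of 9 macrophage markers were positive with a median of 0.35, none of them called. With the averaged level of 13 lymphocyte markers (B and T cells) as a covariate, an alternative chosen after the values were seen, Cidea gave -1.90 (limma adjusted p = 0.0518) and Nat8l -1.19 (adjusted p = 0.0569), so neither passed. Without control pregnant mouse 2 and control non pregnant mouse 4, the mice with the highest pancreatic sums, Cidea gave -1.92 and Nat8l -1.26, each with a limma adjusted p of 0.0406, and Cox7a1 passed too, at -0.76 (adjusted p = 0.0446). Without control pregnant mouse 5 as well, an alternative added after the values were seen, Cidea gave -1.97 (adjusted p = 0.0413), Nat8l -1.33 (adjusted p = 0.0405) and Cox7a1 -0.77 (adjusted p = 0.0479). The part of adipocyte and lymphocyte content in the member differences was not tested beyond these values.

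**Figure D2:**
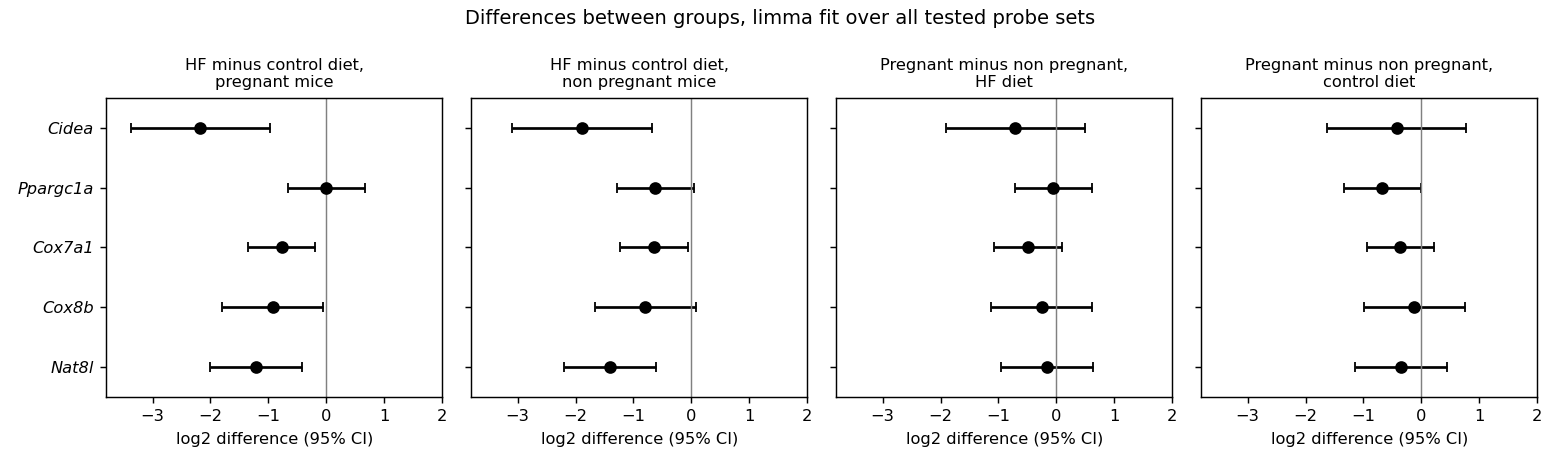
Log2 differences of the 5 tested genes with 95% confidence intervals (x axis) in the 4 comparisons of groups, from the limma fit. Both panels of the diet comparison lie mostly left of 0, except Ppargc1a in pregnant mice at 0.00, and in both panels of the pregnancy comparison every interval spans 0 but that of Ppargc1a on the control diet.

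Estimates for pregnancy were mostly nearer to 0 than those for diet. On the HF diet, 0 of 5 members passed, against 5 of all probe sets (0.0252%), and HF pregnant minus HF non pregnant mice gave log2 differences of -0.71 for Cidea, -0.49 for Cox7a1, -0.26 for Cox8b, -0.16 for Nat8l and -0.05 for Ppargc1a, each with a limma adjusted p of 0.9999. Without HF non pregnant mouse 4 the differences were -0.15 for Cidea, -0.39 for Cox7a1, 0.06 for Cox8b, 0.23 for Nat8l and 0.21 for Ppargc1a. Without HF non pregnant mouse 5 they lay further from 0, at -0.97 for Cidea, -0.75 for Cox7a1, -0.59 for Cox8b, -0.37 for Nat8l and -0.21 for Ppargc1a, again with no call. On the control diet, 0 of 5 members and 0% of all probe sets passed. Ppargc1a had the lowest p there, with control pregnant mice 1.59-fold below control non pregnant mice, a log2 difference of -0.67 (95% CI -1.34 to -0.01, unadjusted p = 0.0480, limma adjusted p = 0.963). Cidea gave -0.43, Cox7a1 -0.36, Nat8l -0.35 and Cox8b -0.12 in the same comparison, with intervals that all spanned 0. Leaving out 1 mouse moved Cidea between -0.84 and -0.16 and Nat8l between -0.57 and -0.14, with the lower value without control non pregnant mouse 2 and the higher without control pregnant mouse 4. It moved Cox7a1 between -0.52 and -0.23 and Cox8b between -0.29 and 0.10, with the lower value without control pregnant mouse 1 and the higher without control pregnant mouse 4.

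Averaged over diet, pregnancy gave 0 calls among the 5 members, against 2 of all probe sets (0.0101%). Cox7a1 had the lowest p, at -0.43 on the log2 scale (SE 0.20, unadjusted p = 0.0421, limma adjusted p = 0.99995). The test of whether the response to pregnancy differed between the diets gave 0 calls among the members and among all probe sets (0%). Its estimate was 0.62 for Ppargc1a (95% CI -0.32 to 1.56, limma adjusted p = 0.933) and -0.28 for Cidea (95% CI -1.98 to 1.42), so for Cidea the interval reaches past 2-fold in either direction.

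Each of 3 members has a close relative on the array that white adipocytes or most cells use. Cidec is the lipid droplet protein of white adipocytes, and Cox7a2 and Cox8a are the widely expressed forms of the subunits that Cox7a1 and Cox8b replace in muscle and brown fat. The relatives differed less between diets, with averaged log2 differences of -0.05 for Cidec (SE 0.23, limma adjusted p = 0.901), -0.28 for Cox7a2 (SE 0.09, adjusted p = 0.0867) and -0.32 for Cox8a (SE 0.10, adjusted p = 0.0897). Cidec had geometric mean intensities of 5836 in HF pregnant and 4271 in HF non pregnant mice, against 5005 in control pregnant mice and 5316 in control non pregnant mice.

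Within every mouse, each member was then set against its relative on the log2 scale, a comparison chosen after the values were seen, in which the scale of an array cancels. The level of a pair has no meaning across probe sets, and only its change between groups was read. Cidea minus Cidec averaged -6.02 ± 0.52 in HF pregnant and -4.86 ± 1.01 in HF non pregnant mice, against -3.62 ± 0.52 in control pregnant mice and -3.28 ± 1.32 in control non pregnant mice (log2, SD, n = 5 each). HF minus control diet was -1.99 (two-sided exact permutation test within pregnancy status, 63504 regroupings, p = 5.0e-04, adjusted over 3 pairs p = 0.00151), and it passed without each mouse in turn. The pair Cox7a1 minus Cox7a2 gave -0.43 (exact permutation p = 0.00797, adjusted p = 0.0120), which with intensities under 100 set to 100 became -0.10 (adjusted p = 0.231), so it rested on values under the threshold. Cox8b minus Cox8a gave -0.54 (exact permutation p = 0.0498, adjusted p = 0.0498), and lost its call without control pregnant mouse 2 and control non pregnant mouse 4, at -0.46 (adjusted p = 0.117), without control pregnant mouse 5 as well, at -0.48 (adjusted p = 0.142), and in 15 of 20 tests that left out 1 mouse, passing only without HF pregnant mouse 3, HF non pregnant mouse 1 or 4, control pregnant mouse 4 or control non pregnant mouse 2.

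**Figure D3:**
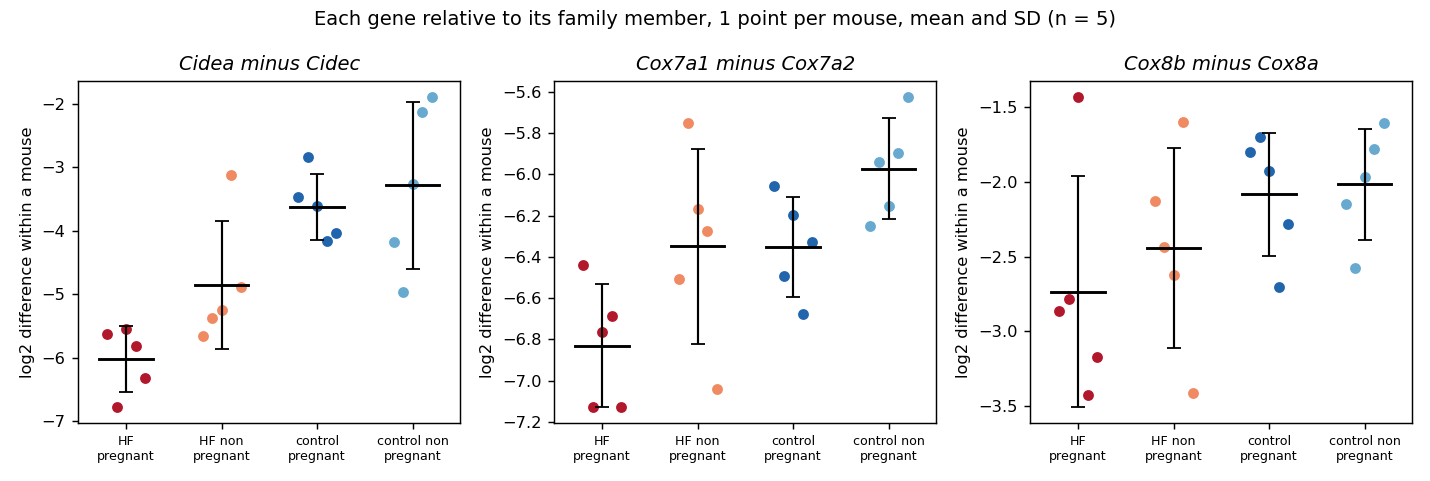
Log2 intensity of Cidea minus Cidec, Cox7a1 minus Cox7a2 and Cox8b minus Cox8a within a mouse (y axis), 5 mice in each group (x axis), with the mean and SD in black. Cidea minus Cidec averages -6.02 in HF pregnant and -3.62 in control pregnant mice, and HF pregnant mouse 3 stands far above its group in Cox8b minus Cox8a.

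Skeletal muscle uses Cox7a1 and Cox8b, so its markers were read beside them. Of 13 markers, 10 stayed under 100 on all 20 arrays, among them the fast myosins Myh1, Myh2 and Myh4, myoglobin (Mb) and parvalbumin (Pvalb). The myosin light chain Myl1 exceeded 100 on all 20 arrays and creatine kinase Ckm on 17. The summed intensity of the 13 had a median of 1097 in HF pregnant and 1515 in HF non pregnant mice, against 1576 in control pregnant mice and 1709 in control non pregnant mice. Of the 3 muscle markers tested, 0 passed, 1 was negative and 2 were positive, with a median of 0.13 for the averaged diet comparison. Myl1 gave -0.77 (SE 0.19, limma adjusted p = 0.0532), Ckm 0.17 (SE 0.46, adjusted p = 0.814) and the skeletal muscle actin Acta1 0.13 (SE 0.20, adjusted p = 0.666). The part of muscle RNA in the member differences was not tested.

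Beyond these, 6 other relatives and partners of the members were tested. Ucp3, an uncoupling protein family member of muscle and fat that is tied to fatty acid oxidation, gave -0.73 (SE 0.19, limma adjusted p = 0.0557), with geometric means of 117 in HF pregnant and 153 in HF non pregnant mice, against 201 in control pregnant mice and 245 in control non pregnant mice. Aspa, the enzyme that splits the N-acetylaspartate made by NAT8L, gave -0.62 (SE 0.20, limma adjusted p = 0.0897), and Got2, which makes aspartate in mitochondria, -0.08. The coactivators related to PGC-1α had estimates of opposite sign, with Ppargc1b at -0.26 and Pprc1 at 0.27, and the respiratory supercomplex factor Cox7a2l gave 0.25. In all, 0 of the 9 tested relatives and partners passed, of 12 listed.

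The transcription regulators of brown and beige fat showed no common direction. Of 21 listed, 18 were tested, 0 passed, 9 were negative and 9 positive, and the median log2 difference for the averaged diet comparison was 0.03. Irf4, which partners PGC-1α in thermogenic transcription, gave 0.48 (limma adjusted p = 0.110), the deacetylase Sirt1 0.27 (adjusted p = 0.113) and the orphan receptor Esrra, a main partner of PGC-1α in mitochondrial transcription, -0.19 (adjusted p = 0.128). Of 19 adrenergic and hormonal inputs, 9 were tested and 0 passed, with 6 negative, 3 positive and a median of -0.05. The diets compared within a pregnancy status gave 4 negative and 5 positive in pregnant mice (median 0.14) and 9 negative in non pregnant mice (median -0.27), with 0 called in either. The difference between these diet effects was positive for all 9, with a median of 0.39 and 0 called. Of all tested probe sets, 40.0% were negative for diet in pregnant mice, 48.4% in non pregnant mice and 52.3% for the difference. Genes read from the same mice are not independent of each other, and a common pattern of these 9 was not tested. Prkaca, the catalytic subunit of the kinase that carries the adrenergic signal, gave -0.50 (adjusted p = 0.0629), Klb, the coreceptor for FGF21, -0.59 and the angiogenic factor Vegfa -0.38, while the receptor Fgfr1 had the highest positive estimate, 0.13.

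Brown fat effector genes were mostly negative but none passed. Of 22 listed, 15 were tested and 12 had a lower estimate on the HF diet, with a median of -0.25. Otop1, 1 of these 12, gave -1.71 (SE 0.42, limma adjusted p = 0.0530), but it exceeded 100 on no more arrays than the filter requires. Its geometric means were 16.9 in HF pregnant and 46.4 in HF non pregnant mice. Those of the control mice were 76.9 (pregnant) and 108 (non pregnant). Only 1 of these group means lay above 100, so the size of the difference is not exact. The test of Otop1 rests mostly on values under the threshold, and its p is not read as close to a call. Kcnk3, an acid-sensitive potassium channel, gave -0.66 (SE 0.20, adjusted p = 0.0788) and Letmd1, a mitochondrial protein needed by brown fat, -0.22 (SE 0.07, adjusted p = 0.0848). Of 9 beige-enriched genes, 6 were tested and 0 passed, with 4 negative, 2 positive and a median of -0.25. The fatty acid transporter Slc27a1 gave -1.06 (adjusted p = 0.0920). The 2 positive estimates were those of the beige adipocyte markers Tbx1 and Tmem26, at 0.53 and 0.52.

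Genes of heat production without Ucp1, a list also chosen with earlier results known, held 2 genes called lower of 9 tested, against 1.11% of all tested probe sets. Gpd1 and Gpd2, the cytosolic and the mitochondrial enzyme of the glycerol phosphate shuttle, were lower on the HF diet at -1.40 (SE 0.31, limma adjusted p = 0.0358) and -0.99 (SE 0.22, adjusted p = 0.0340). Gpd1 had geometric mean intensities of 764 in HF pregnant and 1069 in HF non pregnant mice, against 2290 in control pregnant mice and 2468 in control non pregnant mice. White adipocytes also use GPD1 to make the glycerol backbone of triglyceride. Of the other 7 tested genes of the 15 listed, Gamt, an enzyme of creatine synthesis, had the lowest p at -0.39 (adjusted p = 0.158), and the other 6, creatine kinase Ckb and the calcium pump Atp2a2 among them at 0.15 and 0.09, were positive. The median of the 9 was 0.05, with 3 negative and 6 positive in pregnant mice (median 0.26) and 9 negative in non pregnant mice (median -0.29). Of all tested probe sets, 40.0% were negative for diet in pregnant mice and 48.4% in non pregnant mice.

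Estimates for the respiratory chain were small. Of 27 listed genes outside cytochrome c oxidase, 26 were tested and all 26 had a negative estimate on the HF diet, with a median of -0.29, but 0 passed. Sdhb of complex II gave -0.33 (SE 0.09, limma adjusted p = 0.0654), Ndufb5 of complex I -0.26 (adjusted p = 0.0654) and Uqcrc1 of complex III -0.33 (adjusted p = 0.0656). Of 21 other genes of cytochrome c oxidase and its assembly, 19 were tested, 15 were negative with a median over all of -0.19, and 0 passed. The assembly factor Cox11 gave -0.36 (adjusted p = 0.0586) and the subunit Cox5b -0.32 (adjusted p = 0.0798). For comparison, 42.4% of all tested probe sets had a negative estimate, and the genes of a complex are not independent of each other.

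**Figure D4:**
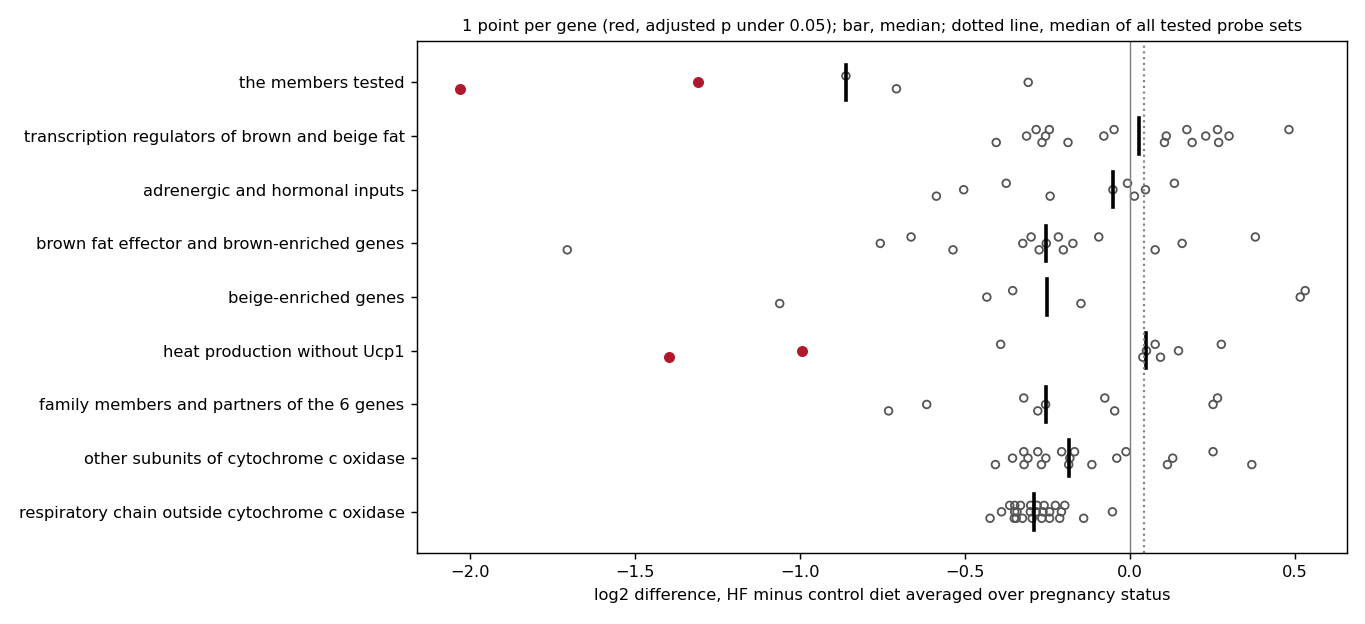
Log2 difference for the HF minus the control diet averaged over pregnancy status (x axis), 1 point a gene, for the 5 tested members and each gene list without them (y axis), with called genes in red, list medians as black bars and the median of all tested probe sets as a dotted line. Cidea and Nat8l, at -2.03 and -1.31, lie left of nearly all other genes, beside Gpd1 at -1.40, Gpd2 at -0.99 and Slc27a1 at -1.06, and the point of Otop1 at -1.71 comes mostly from values under 100.

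Within groups, the members did not all vary together. Deviations of each mouse from the mean of its group were correlated over 20 mice in 10 pairs of genes, with permutation within groups and adjustment over the 10 pairs. Cidea and Nat8l had Pearson r = 0.91 (adjusted permutation p = 3.0e-04) and Spearman rho = 0.84 (adjusted permutation p = 0.00130), and r = 0.82 without the 2 mice farthest in Cidea. Cidea and Cox8b had r = 0.79 and rho = 0.81, and Cox8b and Nat8l r = 0.79 and rho = 0.74, with r of 0.72 and 0.66 without the farthest 2 mice. The adjusted permutation p of these 2 pairs was 3.0e-04 for r, with 0.00130 and 0.00263 for rho. Ppargc1a did not correlate past the threshold with any other member, with r between 0.28 and 0.48 (adjusted permutation p between 0.118 and 0.336). The pairs of Cox7a1 did not pass by r either (adjusted permutation p between 0.0572 and 0.118), although Cidea and Cox7a1 passed by rho, at 0.61 (adjusted permutation p = 0.0187). All genes of a pair come from the same array and the same piece of tissue.

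**Figure D5:**
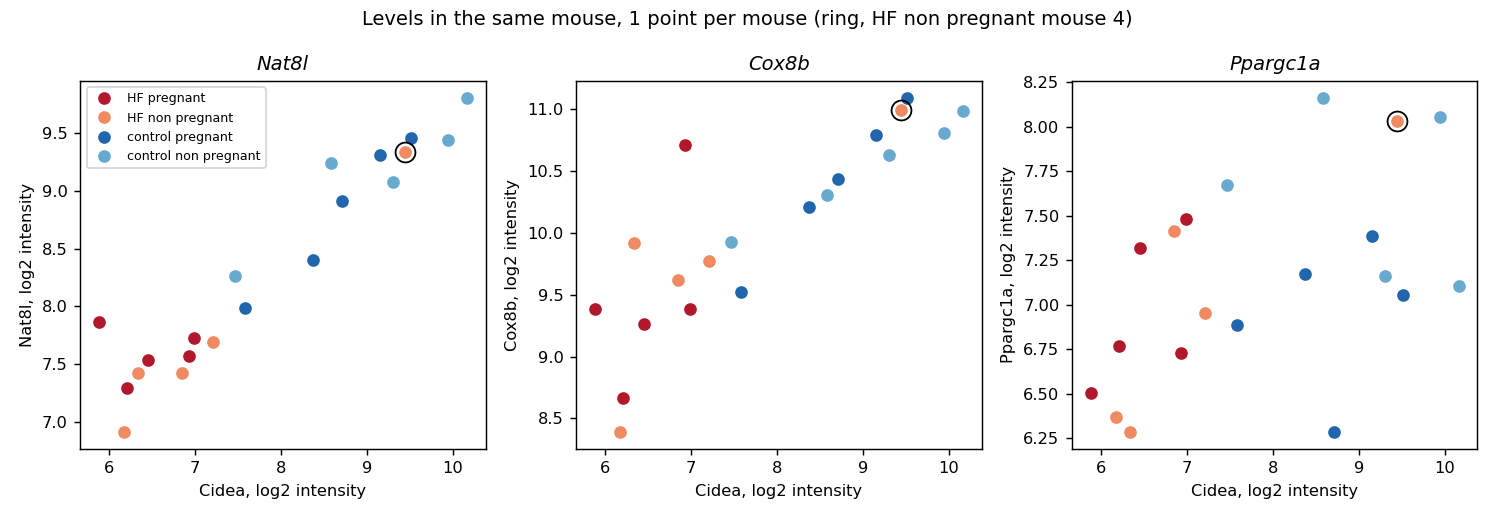
Log2 intensity of Nat8l, Cox8b and Ppargc1a (y axes) against that of Cidea (x axis) in the same mouse, 1 point a mouse coloured by group, with a ring round HF non pregnant mouse 4. Nat8l follows Cidea within and between groups, Cox8b less tightly, and the ringed mouse lies among the control mice in the Nat8l and Cox8b panels.

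The genes whose level followed each member most closely over the 20 arrays were taken from 10598 other genes, as a description without a test. For Cidea these were Chn1 (Pearson r = 0.96), whose product activates the GTPase of Rac, Slc25a1 (0.95), the mitochondrial citrate carrier that supplies carbon for fatty acid synthesis, and Oscp1 (0.94). Nat8l shared Oscp1 (0.96) and Chn1 (0.94) with Cidea, next to the phospholipase Ddhd2 (0.95). For Cox8b they were Ucp3 (0.86), Chpt1 (0.86), an enzyme of phosphatidylcholine synthesis, and Ppp1r1a (0.85), a protein phosphatase inhibitor under adrenergic control.

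Both remaining members had other neighbours. For Cox7a1 these were Svip, the myelin protein gene Pmp22 and the small heat shock protein gene Cryab, each at r = 0.92. For Ppargc1a they were the kinase gene Stk38l (0.94), the RNA-binding protein gene Pcbp3 (0.94) and the cell adhesion gene Sdk2 (0.93). Their averaged diet differences were -0.18, -0.16 and -0.09, closer to 0 than that of Ppargc1a. They shared its sign, which choosing these genes by their likeness to Ppargc1a over all groups favours. Those of Slc25a1, Chn1 and Oscp1 were -1.74, -1.52 and -1.25, a direction that choosing them by their likeness to Cidea and Nat8l over all groups fixes.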

How the data were processed

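RNA of visceral fat from 20 mice was hybridised to whole-genome Affymetrix mouse arrays, 1 array a mouse. Per the labels and the methods of the study, the authors normalized all scans together with RMA (robust multi-array average) from affy under R 2.8.0, and the deposited table holds the resulting intensity of each of 45101 probe sets on the linear scale. The labels name Trizol and the methods Qiagen columns for the RNA, and no scan date or batch was available to the fits. Visible lymph nodes were removed at dissection according to the methods. Gene symbols came from the platform annotation, with 34958 probe sets of 1 symbol, 932 of several and 9211 of none. Array medians were 60.7 to 64.7, and the number of arrays limits the precision.

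Log2 intensities entered a limma model (version 3.58.1, R 4.3.3) with a mean for each of the 4 groups, from which 7 comparisons were drawn. Tests covered 19802 probe sets that exceeded 100 in at least 5 of 20 arrays, without 64 control probe sets, with Benjamini-Hochberg adjustment over all of them and a threshold of 0.05. The study states limma and rank products with an expression threshold of 100. Named genes are the 6 members, the called genes of each list or its 3 of lowest p in the averaged diet comparison, all relatives and partners of the members, and the 3 genes most like each member. Members and lists were chosen with earlier results of these data known. Differences within a mouse were tested by exact permutation and correlations by 100000 permutations (Python 3.11.15, scipy 1.17.1). Both scripts were tested on simulated data. Each result was recomputed under up to 34 alternatives. The columns of 20 arrays all matched a sample, and no 2 arrays held the same values.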

Additional observations from a re-analysis of the deposited data

Results flagged for a closer look

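Of 24 sets of 5 mice (6 genes in 4 groups), 3 held a mouse that stood far from the rest of its group, by a gap over 0.71 of the group's range, where chance gives about 1 in 20. All 3 were for Ucp1, the uncoupling protein of brown fat. HF pregnant mouse 3 had 63.63, with a gap of 0.914 of the range, control pregnant mouse 1 had 33.71, with 0.821, and control non pregnant mouse 5 had 66.93, with 0.840. Each of these mice also had the highest Cox8b intensity of its group, 1678, 2183 and 2032. The other members did not all go this way. Both control mice were the highest of their groups in Cidea, Nat8l and Cox7a1, but HF pregnant mouse 3 was not. None of the 3 mice was the highest of its group in Ppargc1a. In the HF non pregnant group, where no mouse stood apart, the highest Ucp1 was 28.7 in mouse 2 and the highest Cox8b 2041 in mouse 4. All of these Ucp1 values were under the expression threshold of 100.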

How the results depend on the processing

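Of 1140 alternative values of the members' log2 differences, 1061 kept their direction and side of the threshold, 27 fell short of it, 19 newly passed and 33 changed sign, all of the last in estimates far from a call. Most of the 1061 belong to results without a call, which stayed uncalled. All 27 belong to the 2 calls of the averaged diet comparison, lost in 13 of 32 alternatives for Cidea and 14 of 32 for Nat8l. The number of members called for diet averaged over pregnancy status, 2, was 4 with arrays weighted by quality, 4 under an unadjusted rule (p under 0.05 and at least 1.5-fold), 0 with B and T cell markers as a covariate, and 0 to 4 without 1 mouse. With the replicate block it was 0, with adjusted p of 0.0865 for Cidea and 0.1001 for Nat8l, and 19 of all probe sets were called where 246 were without it. The deviations of same-numbered mice had a median correlation of -0.161 over 30 pairs, ranging from -0.749 to 0.674, with 10 over 0.1. Over so wide a range, these values do not settle whether the numbers pair the mice. The block changed no other call of a member. Members called were 2 with array weights, 1 in a fit to the compared groups alone and 4 by the unadjusted rule for diet in pregnant mice, 4 with array weights and 3 by the unadjusted rule for diet in non pregnant mice, 1 with array weights for pregnancy on the HF diet, 1 by the unadjusted rule for pregnancy on the control diet and 2 with array weights for pregnancy averaged over diet, against 0 each. The unadjusted rule also asked for a geometric mean over 100 in a compared group. The array weights ran between 0.233 and 11.3. The averaged diet comparison called 112 of all probe sets with no filter, 161 with intensities under 100 set to 100, 9136 with array weights, 2011 without the 2 control mice with the highest pancreatic sums, 1847 without control pregnant mouse 5 as well, 122 with the lymphoid covariate, 620 by the unadjusted rule and 41 to 4321 without 1 mouse. The comparison of diet in pregnant mice called 38, and 25 with no filter, 1365 with array weights, 64 in a fit to its groups alone, 17 with the block, 21 without the 3 control mice in which all 9 pancreatic markers exceeded 100, 144 with the lymphoid covariate, 553 by the unadjusted rule and 15 to 62 without 1 mouse. The covariate, the omission of 3 control mice and the tests of differences within a mouse were chosen after seeing the data. The cause of each change was not tested.

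Ppargc1a for diet in pregnant mice, 0.00, was -0.042 with intensities under 100 set to 100, -0.22 with array weights, -0.026 with centred arrays, -0.050 with quantile normalization repeated, -0.17 without the 2 control mice of highest pancreatic sum, -0.15 without the 3, and -0.17 to 0.12 without 1 mouse. For pregnancy on the HF diet, Ppargc1a was 0.10 over the mean of its probe sets and -0.23 to 0.21 without 1 mouse, Nat8l 0.029 with array weights and -0.37 to 0.23 without 1 mouse, and Cox8b -0.59 to 0.058 without 1 mouse. Cox8b for pregnancy on the control diet was 0.0057 without the 3 control mice and -0.29 to 0.10 without 1 mouse. The interaction of diet and pregnancy was 0.54 with array weights and -0.55 to 0.28 without 1 mouse for Cidea, 0.019 with intensities under 100 set to 100 and -0.38 to 0.029 without 1 mouse for Cox7a1, 0.31 with array weights and -0.47 to 0.18 without 1 mouse for Cox8b, and -0.021 to 0.58 without 1 mouse for Nat8l. Low signal limits Cidea and Cox7a1 in HF mice and Ucp1 in all mice, where many values lay under 100.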
